A study of Homo sapiens with 12 samples.

Results

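The SLC25A genes encode the mitochondrial carriers, membrane proteins that pass metabolites through the inner mitochondrial membrane. They were taken as every gene of the count tables whose symbol begins with SLC25A, which gave 44 of the 15414 genes listed. The exosome tables listed 39 of them and the cell tables all 44. SLC25A2, SLC25A21, SLC25A27, SLC25A34 and SLC25A52 had rows in the cell tables alone.

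RNA was sequenced from AC16, an established human line made by fusing ventricular cardiomyocytes with transformed fibroblasts, and from the exosomes of AC16, which are small vesicles that cells release. There were 4 groups of 3 libraries: Ang exosomes, Con exosomes, Ang whole cells and Con whole cells. The labels give no agent, dose or time behind Ang or Con and do not say that libraries came from separate cultures, so each p-value is set against the scatter among the libraries of a group and says nothing about cultures. The study asked which miRNAs the exosomes of hypertrophic cardiomyocytes carry and which RNA-binding proteins bind those miRNAs. Cell libraries were made with a VAHTS Universal V6 kit and exosome libraries with a SMARTer Stranded Total RNA kit, so that exosome against cell and kit against kit cannot be told apart.

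Gene reads numbered 535442 to 587783 in the Ang exosome libraries, 717263 to 745311 in the Con exosome libraries and 9202471 to 11212674 in the cell libraries. Of 12 cardiomyocyte markers, 3 were listed in exosomes, with a summed 25.1 to 65.4 CPM (reads scaled to a common library size), and 8 in cells, with a summed 109 to 130 CPM. In cells the contractile genes TNNC1, MYH6, MYL2 and MYL7 were not listed, and TNNT2 had 0 to 9 reads per library, while the sarcomere gene TTN had 709 to 935 reads and the cardiac transcription factor GATA4 239 to 335 reads per library. All 8 fibroblast markers were listed, with a summed 5063 to 6586 CPM in exosomes and 5903 to 7277 CPM in cells. The part of this marker pattern in the results below was not tested. In exosomes, fewer copies per vesicle and fewer vesicles that hold an mRNA cannot be told apart.

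A mitochondrial carrier is built from 3 repeats of about the same fold, and each repeat holds a conserved carrier signature. The carrier opens to one side of the membrane at a time and usually swaps one substrate for another. Heart muscle depends on the ADP/ATP carriers, which export ATP from mitochondria, on the phosphate carrier, on the aspartate/glutamate and oxoglutarate carriers of the malate-aspartate shuttle, and on the carnitine carrier of fatty acid oxidation. The proteins are made in the cytosol and carry no cleaved presequence in most cases. They enter mitochondria through the TOM pore, small TIM chaperones and the TIM22 complex.

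The 3 ADP/ATP carriers are encoded by SLC25A5, SLC25A6 and SLC25A4, and their coding sequences are alike enough to ask whether reads could be told apart. Coding bases 379 to 438 are shown because they span a carrier signature; 13 of the 60 bases differ from SLC25A5 in SLC25A6 and 15 in SLC25A4. Capitals mark a base that differs from SLC25A5, or, in SLC25A5 itself, from at least 1 of the other genes. The sequences were read from GENCODE 29 transcripts (GRCh38) and each window lies in 1 coding exon, at chrX:119469928-119469987 on the plus strand for SLC25A5, at chrX:1389401-1389460 on the minus strand for SLC25A6 and at chr4:185145031-185145090 on the plus strand for SLC25A4.
SLC25A5: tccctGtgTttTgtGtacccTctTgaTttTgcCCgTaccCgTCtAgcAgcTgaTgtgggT
SLC25A6: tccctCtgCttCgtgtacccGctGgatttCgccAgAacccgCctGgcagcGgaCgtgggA
SLC25A4: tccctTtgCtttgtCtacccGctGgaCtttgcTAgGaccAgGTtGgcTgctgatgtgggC
Over all 894 coding bases, SLC25A5 was identical to SLC25A6 at 78.7% of positions, and its longest run of identical bases with SLC25A6 was 29. SLC25A5 was identical to SLC25A4 at 77.2%, with a longest identical run of 14 bases, and SLC25A6 to SLC25A4 at 77.9%, with a longest run of 20 bases. SLC25A6 lies in the region shared by the X and Y chromosomes, and the way the counting treated such copies and the processed pseudogenes of these carriers is not given in the sources used here, so that their levels carry that uncertainty.

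SLC25A52 and SLC25A51 are a second set of similar genes. The coding sequence of SLC25A52 matched that of SLC25A51, which encodes the mitochondrial NAD+ carrier, at 97.6% of 891 aligned positions, with an identical run of 169 bases. The 60 coding bases with the most differences are shown, with the differing bases in capitals, at chr18:31760300-31760359 for SLC25A52 and at chr9:37888189-37888248 for SLC25A51, both on the minus strand.
SLC25A52: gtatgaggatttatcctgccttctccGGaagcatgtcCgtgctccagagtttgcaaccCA
SLC25A51: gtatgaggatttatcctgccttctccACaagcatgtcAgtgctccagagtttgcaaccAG
SLC25A52 had 4, 1 and 1 reads in Ang cells, against 0, 1 and 2 reads in Con cells, while SLC25A51 had 130, 107 and 100 reads in Ang cells, against 97, 79 and 70 reads in Con cells. A read that falls in the identical run cannot be told apart between the pair.

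Carrier mRNAs together took 0.176% ± 0.00677 of gene reads in Ang exosomes, 0.171% ± 0.00950 in Con exosomes, 0.189% ± 0.00618 in Ang cells and 0.186% ± 0.00378 in Con cells (SD, n = 3 each). Per library the median carrier gene had 8 reads in Ang exosomes, 11 in Con exosomes, 165 in Ang cells and 143 in Con cells. Of the 39 carriers listed in exosomes, 12 had no read in some Ang library and 9 in some Con library. The values of single carriers in exosomes therefore rest on few reads for all but the most abundant.

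Some carriers had few reads in cells too. SLC25A21, a carrier of oxoadipate, had 0, 0 and 5 reads in Ang cells, against 0, 0 and 2 reads in Con cells. SLC25A2, an ornithine carrier, had 0, 3 and 5 reads in Ang cells, against 6, 6 and 7 reads in Con cells. SLC25A34, whose substrate is not settled, had 9, 10 and 13 reads in Ang cells, against 15, 8 and 11 reads in Con cells. These 3 and SLC25A52 were the carriers with too few reads for the test in cells. SLC25A27, a brain uncoupling-like protein, had 26, 17 and 19 reads in Ang cells, against 19, 18 and 33 reads in Con cells, and the groups overlapped.

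Levels between genes were compared as TPM, here reads divided by the length of the gene's annotated exons without double counting and scaled to the same total over all listed genes in each library. SLC25A5, also called ANT2, the ADP/ATP carrier of dividing cells, stood above the other carriers in each of the 12 libraries. Its level was 1379 ± 152 TPM in Ang exosomes, 1392 ± 37.9 TPM in Con exosomes, 1415 ± 29.8 TPM in Ang cells and 1382 ± 25.7 TPM in Con cells (SD, n = 3 each). That was 50.4% of the summed carrier TPM in Ang exosomes, 50.8% in Con exosomes, 47.8% in Ang cells and 46.4% in Con cells.

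SLC25A6 (ANT3, a broadly expressed ADP/ATP carrier), SLC25A1, which exports citrate for fatty acid synthesis, and SLC25A3, the phosphate carrier, came next in every group. SLC25A6 had 343 ± 18.2 TPM in Ang exosomes, 416 ± 50.6 TPM in Con exosomes, 253 ± 99.7 TPM in Ang cells and 335 ± 46.3 TPM in Con cells. SLC25A1 had 293 ± 67.4 TPM in Ang exosomes, 284 ± 53.3 TPM in Con exosomes, 321 ± 15.6 TPM in Ang cells and 311 ± 12.1 TPM in Con cells. SLC25A6 and SLC25A1 overlapped between libraries in Ang exosomes, Ang cells and Con cells, and in Con exosomes SLC25A6 was above SLC25A1 in all 3 libraries. SLC25A3 had 93.8 ± 15.9 TPM in Ang exosomes, 105 ± 14.9 in Con exosomes, 144 ± 3.75 in Ang cells and 135 ± 4.96 in Con cells. The rank of SLC25A3 depends on the length used, because its annotated exons span 8896 bases together and its principal transcript 1678 bases: over principal transcripts it ranked 2, with 305 ± 45.7 TPM in exosomes and 436 ± 19.4 TPM in cells (SD, n = 6 each).

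**Figure D1:**
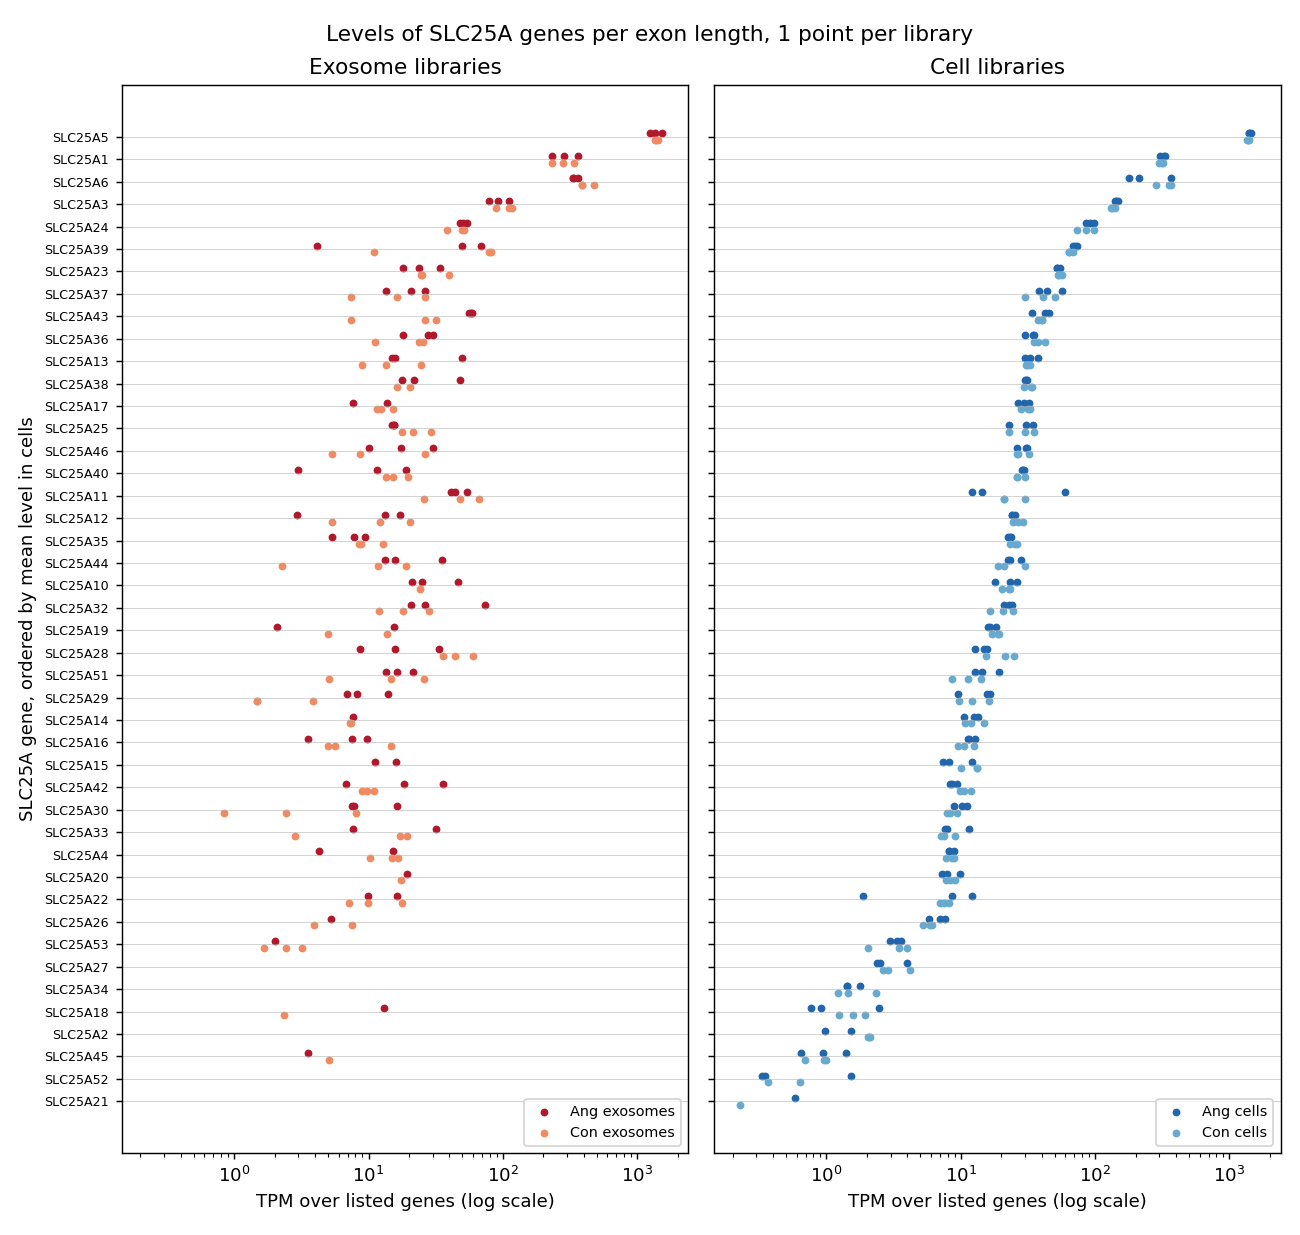
Level of each SLC25A gene (TPM over listed genes, log axis) in the 6 exosome libraries (left) and the 6 cell libraries (right), 1 point per library, Ang above Con within a row, ordered by the mean level in cells; libraries with 0 reads have no point. SLC25A5 stands apart at the top in both, and the points of most other carriers spread more widely in exosomes than in cells.

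SLC25A4 encodes ANT1, the ADP/ATP carrier that predominates in adult heart and skeletal muscle. In AC16 it was a minor carrier: it had 10, 3 and 0 reads in Ang exosomes and 9, 13 and 14 reads in Con exosomes, and 86, 86 and 91 reads in Ang cells and 84, 78 and 102 reads in Con cells. Its share of the reads of the 3 ADP/ATP carriers was 1.05% ± 1.21 in Ang exosomes, 2.20% ± 0.491 in Con exosomes, 1.51% ± 0.156 in Ang cells and 1.44% ± 0.107 in Con cells. SLC25A5 had 72.7% ± 2.56 of these reads in Ang exosomes, 68.4% ± 2.82 in Con exosomes, 78.6% ± 6.30 in Ang cells and 73.1% ± 2.92 in Con cells. SLC25A6 had 26.2% ± 3.15 in Ang exosomes, 29.4% ± 2.46 in Con exosomes, 19.9% ± 6.42 in Ang cells and 25.5% ± 2.998 in Con cells (SD, n = 3 each). The SLC25A6 share ran low in Ang cell libraries 1 and 2, at 17.6% and 14.96%, and stood at 27.2% in Ang cell library 3, within the range of the Con cells.

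**Figure D2:**
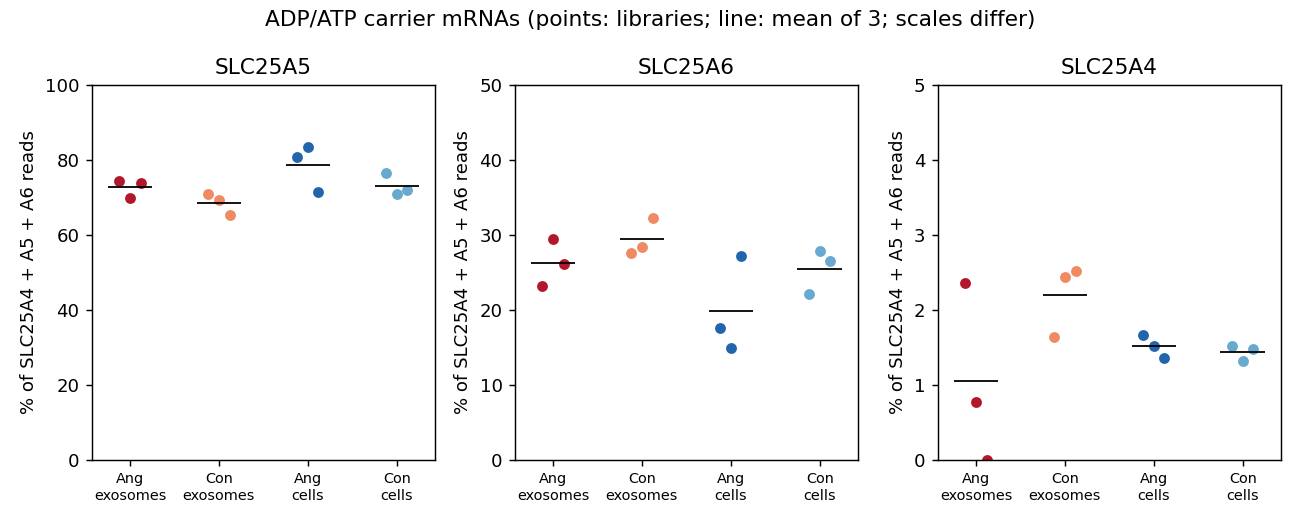
Share of each ADP/ATP carrier in the summed reads of SLC25A4, SLC25A5 and SLC25A6 (percent, 1 point per library, line at the mean of 3; the 3 panels have different scales). SLC25A5 holds most reads in all 12 libraries, and SLC25A4 stays between 0% and 2.52%.

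Exosomes were compared with cells over all 12 libraries, as the mean of both exosome groups minus the mean of both cell groups. Of 39 carriers tested, 4 rose and 6 fell, which is 25.6% called against 37.1% of all 11811 genes tested (edgeR quasi-likelihood test, Benjamini-Hochberg adjusted p under 0.05). Higher calls were 17.6% and lower calls 19.5% of all genes tested. The 4 that rose were both abundant ADP/ATP carriers, SLC25A5 and SLC25A6, the oxoglutarate carrier SLC25A11 and the iron carrier SLC25A28. The 6 that fell were the calcium-regulated ATP-Mg/phosphate carriers SLC25A24 and SLC25A23, the iron carrier SLC25A37, the basic amino acid carrier SLC25A29, the peroxisomal carrier SLC25A17 and SLC25A35, whose substrate is not settled.

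Without 1 cell library the low-count filter left 31 carriers to test. The number called was 5 without Con cell library 2 and 4 without Ang cell library 3. It was 6 without Con cell library 3 or Ang cell library 1. There were 3 higher and 4 lower calls without Con cell library 1, and 3 higher and 5 lower without Ang cell library 2. Over all genes, the fits without 1 cell library called from 34.5% (without Ang cell library 3) to 35.4% (without Ang cell library 2). DESeq2 called 20 of the 39 carriers, 9 higher and 11 lower, against 48.4% of all genes. The median log2 fold change of the 39 carriers was -0.18, beside -0.15 for all genes. With library totals in place of scaling factors (TMM), the median of all genes moved to -0.36, and 2 carriers then rose and 10 fell, with 1546 genes higher and 3318 lower in all, beside 2082 higher and 2298 lower under TMM. Of the 39 carriers, 18 reached too few reads for a test in exosomes alone and were tested only in the fit that includes the cell libraries. Within Ang libraries 4 carriers were called, against 21.8% of all genes: SLC25A5, SLC25A6 and SLC25A42 higher and SLC25A35 lower. Within Con libraries 4 were called, against 20.4% of all genes: SLC25A5 and SLC25A28 higher and SLC25A29 and SLC25A15 lower. SLC25A15 had 0 reads in each Con exosome library, so its call sets cell reads against none. With only genes that had enough reads in each compartment, 21 carriers were tested and 7 called, against 43.3% of 8316 genes. The 4 higher were SLC25A5, SLC25A6, SLC25A11 and SLC25A28, and the 3 lower were SLC25A23, SLC25A24 and SLC25A37. SLC25A17, SLC25A29 and SLC25A35 were among the 18 with too few reads in exosomes alone and were not in that test. The same holds for SLC25A15 and SLC25A42, called within Con or within Ang alone.

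**Figure D3:**
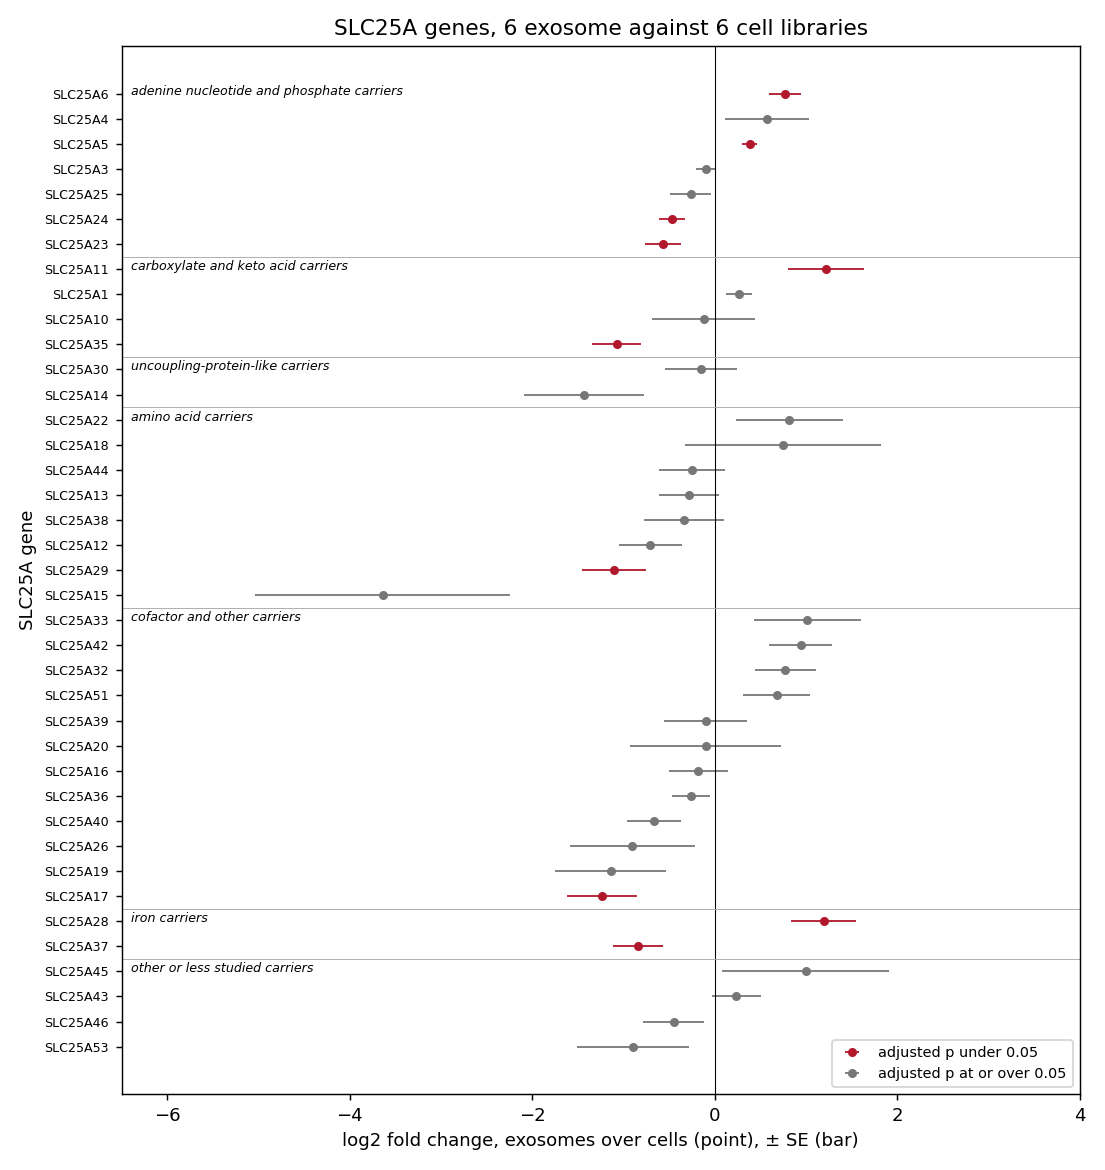
Log2 fold change of exosomes over cells with its standard error for the 39 SLC25A genes tested, grouped by what they carry; red marks an adjusted p under 0.05. The 4 red points right of 0 are SLC25A6, SLC25A5, SLC25A11 and SLC25A28, and the 6 left of 0 lie between -1.24 and -0.47.

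SLC25A5 (ENSG00000005022, chrX:119468400-119471319, plus strand) had 611, 496 and 533 CPM in Ang exosomes and 561, 540 and 545 CPM in Con exosomes, against 425, 435 and 424 CPM in Ang cells and 421, 403 and 413 CPM in Con cells. All 6 exosome libraries were above all 6 cell libraries. The mean was 548 ± 38.0 CPM in exosomes and 420 ± 11.02 CPM in cells (SD, n = 6 each), and the fold change was 1.30 (log2 0.38, SE 0.08, adjusted p = 0.00245, edgeR). With library totals the log2 value was 0.17 and the adjusted p 0.107, so that the call was lost. The test passed whichever single library was left out, within Ang (adjusted p = 0.0404) and within Con (adjusted p = 0.0205).

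SLC25A6 (ENSG00000169100, chrX:1386152-1392724, minus strand) had 190, 209 and 188 CPM in Ang exosomes and 219, 222 and 269 CPM in Con exosomes, against 92.4, 78.0 and 161 CPM in Ang cells and 122, 158 and 152 CPM in Con cells. Exosome and cell libraries did not overlap here either. Its fold change was 1.71 (log2 0.77, SE 0.18, adjusted p = 0.00477, edgeR), and the test passed whichever single library was left out and under library totals. Within Con libraries alone the adjusted p was 0.0604 and the log2 value 0.72.

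Of the 7 adenine nucleotide and phosphate carriers tested, 2 rose, 2 fell and 3 did not pass. SLC25A4 and SLC25A3 were among the last. SLC25A4 had a log2 value of 0.57 (SE 0.46, adjusted p = 0.353), which turned to -0.20 without Ang exosome library 1. SLC25A3 had 233 ± 33.7 CPM in exosomes and 249 ± 12.5 CPM in cells, a log2 difference of -0.10 (SE 0.11, adjusted p = 0.528).

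The ATP-Mg/phosphate carriers SLC25A24, SLC25A23 and SLC25A25 adjust the adenine nucleotide pool of mitochondria in response to calcium. SLC25A24 had 85.4, 90.0 and 96.1 CPM in Ang exosomes and 90.7, 69.0 and 87.1 CPM in Con exosomes, against 117, 123 and 134 CPM in Ang cells and 116, 130 and 98.8 CPM in Con cells. All exosome libraries were below all cell libraries, and SLC25A24 fell by 0.47 on the log2 scale (SE 0.14, adjusted p = 0.0186, edgeR). The adjusted p was 0.0623 without Con cell library 2 and 0.0572 without Ang cell library 3. SLC25A23 fell by 0.57 (SE 0.20, adjusted p = 0.0403), to 35.3 ± 9.99 CPM in exosomes, against 52.1 ± 1.77 CPM in cells, with Con exosome library 1 at 50.4 CPM among the cell values. That call was lost when 1 of 10 libraries was left out, namely any of the 6 cell libraries, Con exosome library 2 or 3 or Ang exosome library 1 or 3, with adjusted p-values up to 0.0904. SLC25A25 had a log2 value of -0.27 (SE 0.23, adjusted p = 0.382).

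Among carriers of carboxylates and keto acids, SLC25A11, the oxoglutarate/malate exchanger of the malate-aspartate shuttle, rose and SLC25A35 fell. SLC25A11 (chr17:4937130-4940251, minus strand) had 29.1, 31.2 and 38.0 CPM in Ang exosomes and 46.1, 33.8 and 18.02 CPM in Con exosomes, against 32.0, 6.51 and 7.77 CPM in Ang cells and 11.2, 11.02 and 16.1 CPM in Con cells. Ang cell library 1 stood with the exosomes, and the other 5 cell libraries were below all exosome libraries. The fold change was 2.33 (log2 1.22, SE 0.42, adjusted p = 0.0366, edgeR). Without Ang cell library 1 the adjusted p was 0.00116 and the log2 value 1.80. The test passed also without Con cell library 3 and without Con exosome library 3, and was lost without each of the other 9 libraries, with adjusted p-values up to 0.0963, and with library totals (log2 1.01, adjusted p = 0.0702).

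SLC25A35 had 5, 3 and 4 reads in Ang exosomes and 9, 6 and 6 reads in Con exosomes, against 173, 201 and 210 reads in Ang cells and 204, 189 and 235 reads in Con cells. In CPM that was 8.999 ± 2.42 in exosomes and 18.8 ± 0.971 in cells, without overlap, and SLC25A35 fell by 1.07 on the log2 scale (SE 0.27, adjusted p = 0.00759, edgeR). The test passed whichever single library was left out and within Ang (adjusted p = 0.0422), but not within Con (adjusted p = 0.0934). SLC25A35 had too few exosome reads for a test in exosomes alone and was tested only in the fit that includes the cell libraries. RANGRF on the other strand covers 33.2% of its exon bases, and whether counting used strand is not given in the sources used here, so that reads of RANGRF may be among them. SLC25A1 had 159 ± 30.6 CPM in exosomes and 133 ± 6.24 CPM in cells (log2 0.26, SE 0.14, adjusted p = 0.175), and SLC25A10, the dicarboxylate carrier, a log2 value of -0.12 (SE 0.56, adjusted p = 0.883).

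The 2 mitoferrins, which bring iron into mitochondria for haem and iron-sulphur cluster synthesis, lay on opposite sides. SLC25A28 (mitoferrin 2, chr10:99610522-99620609, minus strand) had 8, 4 and 2 reads in Ang exosomes and 19, 14 and 11 reads in Con exosomes, against 44, 57 and 63 reads in Ang cells and 88, 78 and 65 reads in Con cells. Scaled to depth it was 15.2 ± 8.54 CPM in exosomes and 6.15 ± 1.61 CPM in cells, a rise of 2.29-fold (log2 1.20, SE 0.36, adjusted p = 0.0195, edgeR). The 3 Con exosome libraries and Ang exosome library 1 were above all cell libraries, while Ang exosome library 2 lay among them and library 3 below them. The adjusted p was 0.0761 without Ang exosome library 1 and 0.0533 without Con cell library 3, and within Ang libraries alone it was 0.312.

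SLC25A37, mitoferrin 1, the form that developing red cells need, had 29.1, 57.0 and 44.1 CPM in Ang exosomes and 56.1, 16.2 and 34.5 CPM in Con exosomes, against 72.2, 62.3 and 93.5 CPM in Ang cells and 49.1, 80.9 and 66.6 CPM in Con cells. It fell by 0.84 on the log2 scale (SE 0.28, adjusted p = 0.0302, edgeR), with 2 exosome libraries inside the cell range. This call was lost without each of 7 libraries (Con cell libraries 2 and 3, Ang cell libraries 1 and 3, Con exosome library 3 and Ang exosome libraries 1 and 3), with adjusted p-values up to 0.0809. The share of SLC25A28 in the reads of both mitoferrins was 18.2% ± 14.5 in Ang exosomes, 40.4% ± 13.5 in Con exosomes, 6.40% ± 1.17 in Ang cells and 10.4% ± 4.13 in Con cells (SD, n = 3 each).

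Of 8 amino acid carriers tested between exosomes and cells, SLC25A29 alone passed. SLC25A29 had 7, 15 and 8 reads in Ang exosomes and 2, 2 and 5 reads in Con exosomes, against 243, 155 and 271 reads in Ang cells and 182, 251 and 172 reads in Con cells, and fell by 1.11 on the log2 scale (SE 0.35, adjusted p = 0.0256, edgeR). The log2 value was -0.13 within Ang (adjusted p = 0.860) and -2.09 within Con. The call was lost without each of Con cell library 2, Ang cell libraries 1 and 3 and Con exosome libraries 1 and 2, with adjusted p-values up to 0.0659. The aspartate/glutamate carriers SLC25A12 and SLC25A13, the calcium-regulated step of the malate-aspartate shuttle, had log2 values of -0.71 (SE 0.35, adjusted p = 0.128) and -0.28 (SE 0.33, adjusted p = 0.524).

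Of 12 carriers of cofactors, nucleotides, carnitine or glutathione, SLC25A17 alone passed, and SLC25A42 lay just outside the threshold (log2 0.94, SE 0.35, adjusted p = 0.0505, edgeR). SLC25A17, a carrier of the peroxisomal membrane for coenzyme A and related cofactors, had 0, 14.7 and 8.01 CPM in Ang exosomes and 13.0, 16.2 and 12.01 CPM in Con exosomes, against 24.0, 21.5 and 26.2 CPM in Ang cells and 25.4, 22.3 and 25.9 CPM in Con cells. All exosome libraries were below all cell libraries, and the fold was 2.36 lower (log2 -1.24, SE 0.38, adjusted p = 0.0234, edgeR). The adjusted p lay between 0.0509 and 0.0570 without Con cell library 1 or 3 or Ang cell library 1 or 3. SLC25A39, a mitochondrial glutathione carrier, had a log2 value of -0.10 (SE 0.46, adjusted p = 0.882), and its exosome libraries ran from 3.88 to 75.1 CPM. SLC25A20, the carnitine/acylcarnitine carrier, had 0, 0 and 5 reads in Ang exosomes and 0, 0 and 6 reads in Con exosomes, too few to compare with 31 to 43 reads per cell library.

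None of the 2 uncoupling-protein-like carriers tested and none of the 4 less studied carriers passed between exosomes and cells.

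**Figure D4:**
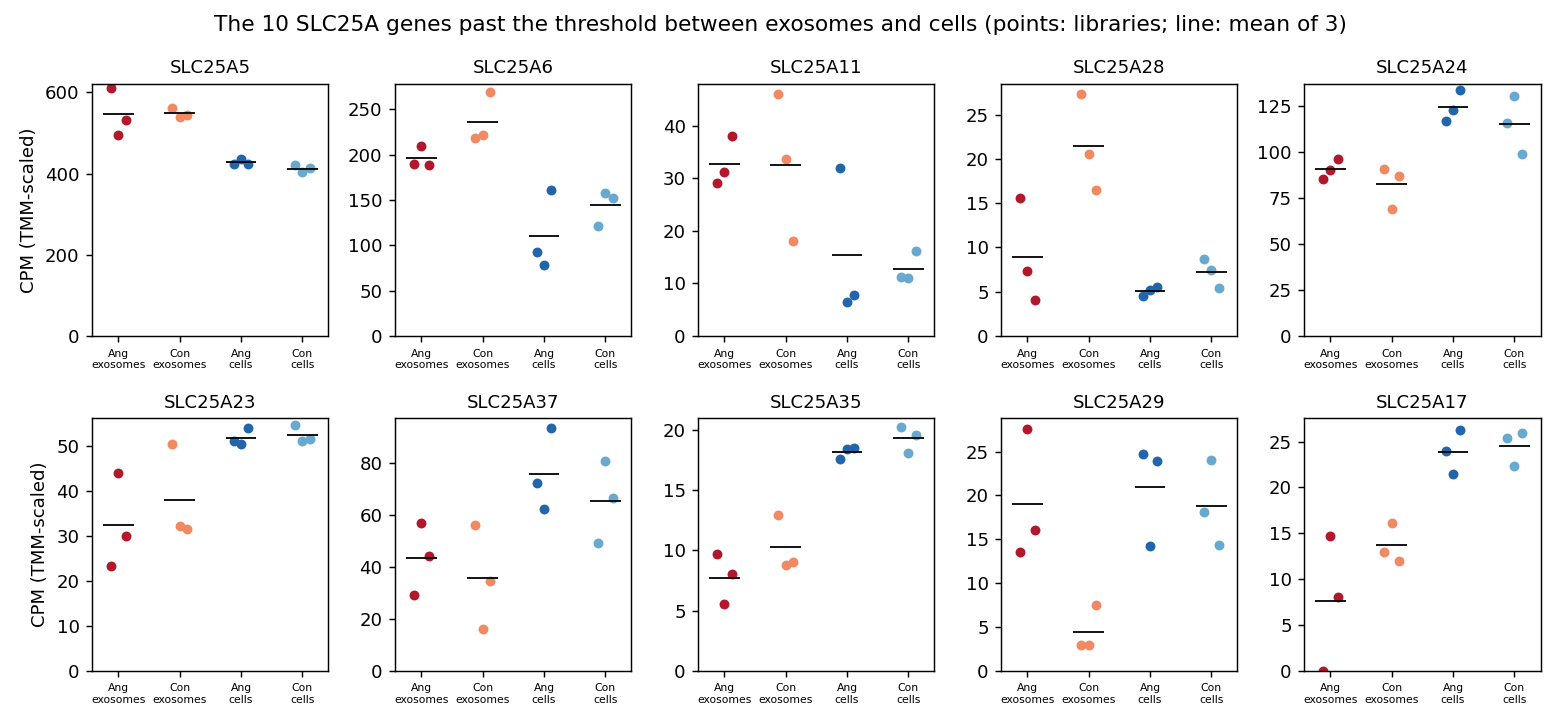
CPM of the 10 SLC25A genes past the threshold between exosomes and cells in every library (points; line at the mean of 3; the vertical scales start at 0 and differ). SLC25A5 and SLC25A6 are above, and SLC25A24, SLC25A35 and SLC25A17 below, the cell libraries in all 6 exosome libraries; the other 5 overlap.

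In all, exosome and cell libraries did not overlap for 6 of 39 carriers, 2 higher and 4 lower, against 23.2% of all genes, 10.1% higher and 13.1% lower; beyond the carriers named above this was SLC25A14, not past the threshold, an uncoupling-protein-like carrier with 0 to 4 reads per exosome library. Solute carrier genes outside the SLC25A group were called at 37.7% of 159 tested, with 14 higher and 46 lower and a median log2 value of -0.48. Nuclear-encoded respiratory chain genes were called at 51.9% of 81 tested, with 37 higher and 5 lower and a median of 0.52. Over all 12 libraries the median of the carriers lay between these lists and near that of all genes. Within Con libraries the carrier median was -0.36, beside -0.08 for all genes, and within Ang libraries 0.02, beside -0.11. Across the 39 carriers the log2 value had a Pearson correlation of -0.02 with the length of the principal transcript and of 0.28 with GC content, beside -0.18 and 0.25 across all genes; genes of the same libraries are not independent points.

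The import route of the carriers and the other channels of the mitochondrial membranes were read from the same fit. Of 20 genes of the import machinery, 3 were higher in exosomes and 3 lower, which is 30.0% called beside 37.1% of all genes. TOMM40, the channel of the outer membrane pore, was higher (log2 0.95, SE 0.14, adjusted p = 0.000186), and TOMM70, the receptor that binds carrier precursors, was lower (log2 -1.17, SE 0.22, adjusted p = 0.00126). TIMM29 of the TIM22 complex and the small chaperone TIMM10 were higher, with log2 values of 1.43 (SE 0.38) and 1.38 (SE 0.48). AGK, also of the TIM22 complex, was lower with -0.99 (SE 0.27). TIMM8A was lower with -1.81 (SE 0.50, adjusted p = 0.0139, edgeR), at 7.79 ± 8.80 CPM in exosomes and 13.4 ± 1.26 CPM in cells. TIMM8A had too few exosome reads for a test in exosomes alone. Of 22 other membrane carriers and channels, 3 were higher and 4 lower, which is 31.8%, so that neither list was called above the share of all genes. VDAC1, the main outer membrane channel for metabolites, had 268 ± 38.8 CPM in exosomes and 145 ± 5.34 CPM in cells (log2 0.89, SE 0.12, adjusted p = 0.000120). The carrier family members under other symbols that were tested, MTCH1, MTCH2 and UCP2, did not pass.

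In exosomes, Ang was compared with Con over 6 libraries, and 21 carriers had enough reads to be tested. None passed the adjusted threshold, 1 had an unadjusted p under 0.05 and DESeq2 called none; over all 8327 genes edgeR called 0.012%, 3.79% had an unadjusted p under 0.05 and DESeq2 called 0.192%. The median log2 value of the 21 carriers was -0.0002, beside -0.0021 for all genes. The groups did not overlap for 4 carriers, SLC25A43 higher and SLC25A6, SLC25A25 and SLC25A28 lower in Ang, against 10.8% of all genes, 5.18% higher and 5.6% lower.

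SLC25A43, a carrier whose substrate is not established, had the smallest p. It had 25, 26 and 23 reads in Ang exosomes, against 15, 18 and 4 reads in Con exosomes, so that every Ang library was above every Con library at a lower depth. Its log2 value was 1.39 (SE 0.57, unadjusted p = 0.0359, adjusted p = 0.999, edgeR), and 0.98 without Con exosome library 3, the lowest. In cells it had 263, 306 and 242 reads in Ang, against 250, 260 and 278 reads in Con, with a log2 value of 0.06 (SE 0.13, adjusted p = 0.939).

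SLC25A32, SLC25A28, SLC25A10 and SLC25A44 followed by p. SLC25A32, the folate and FAD carrier, had 13, 39 and 10 reads in Ang exosomes, against 8, 12 and 18 reads in Con exosomes (log2 1.06, SE 0.64, adjusted p = 0.999); its value rests on Ang library 2 and was 0.28 without it. A gene on the same strand covers 69.7% of the exon bases of SLC25A32, so its reads cannot all be assigned. SLC25A28 had a log2 value of -1.24 (SE 0.77, adjusted p = 0.999) from the reads given above, and -1.87 without Ang library 1. SLC25A10 had 9, 8 and 16 reads in Ang exosomes, against 0, 0 and 11 reads in Con exosomes (log2 1.93, SE 1.26, adjusted p = 0.999), and another gene on its strand covers 46.6% of its exon bases. SLC25A44, which carries branched-chain amino acids, had 35, 14 and 15 reads in Ang exosomes, against 25, 3 and 15 reads in Con exosomes (log2 0.97, SE 0.72, adjusted p = 0.999); its value ran from 0.40 without Ang library 1 to 1.61 without Con library 1.

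The carriers fixed for description were read from the same fit. SLC25A5 had 315, 270 and 266 reads in Ang exosomes, against 390, 368 and 363 reads in Con exosomes, a log2 difference of -0.00015 after scaling (SE 0.14). SLC25A6 had 98, 114 and 94 reads in Ang exosomes, against 152, 151 and 179 reads in Con exosomes (log2 -0.26, SE 0.22, adjusted p = 0.999). The log2 value was -0.15 for SLC25A3 (SE 0.23), 0.06 for SLC25A1 (SE 0.28) and 0.14 for SLC25A24 (SE 0.31). It was 0.01 for SLC25A11 (SE 0.51), 0.29 for SLC25A37 (SE 0.54), -0.16 for SLC25A12 (SE 0.83), -0.46 for SLC25A39 (SE 0.95) and -1.06 for SLC25A4 (SE 1.03). The SLC25A4 value ran from -2.56 without Ang library 1 to -0.50 without Ang library 3. Among these carriers the standard error was smallest for SLC25A5 and largest for SLC25A4. SLC25A13 and SLC25A20 had too few exosome reads for this test.

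In cells, 40 carriers were tested between Ang and Con. None passed, none had an unadjusted p under 0.05 and DESeq2 called none; over all 13331 genes edgeR called 0%, 6.12% had an unadjusted p under 0.05 and DESeq2 called 0.45%. The smallest adjusted p of a carrier was 0.814. The log2 values of the 40 carriers ran from -0.50 to 0.46 with a median of 0.05, beside -0.0008 for all genes. Of the 40, 26 were above 0, against 49.8% of all genes. So were 50 of 81 respiratory chain genes, 16 of 20 import machinery genes and 16 of 22 other membrane carriers and channels. Of solute carrier genes outside the SLC25A group, 94 of 200 were above 0. The carrier median was -0.01 without Ang cell library 1. The groups did not overlap for SLC25A3 and SLC25A39, higher in Ang, and SLC25A42, lower in Ang, which is 3 of 40 carriers against 13.9% of all genes, 7.01% higher and 6.89% lower.

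SLC25A42, which carries coenzyme A into the matrix, had the smallest p, with 74, 85 and 97 reads in Ang cells, against 108, 93 and 114 reads in Con cells (log2 -0.29, SE 0.12, adjusted p = 0.814, edgeR). SLC25A28 had a log2 value of -0.50 (SE 0.21, adjusted p = 0.814), below 0 as in exosomes, and its cell groups met only through Con library 3, at 5.41 CPM against 4.48 to 5.56 CPM in Ang. SLC25A3 had 2506, 2883 and 2899 reads in Ang cells, against 2524, 2452 and 2798 reads in Con cells (log2 0.10 after scaling, SE 0.05, adjusted p = 0.826). SLC25A39 had a log2 value of 0.13 (SE 0.07, adjusted p = 0.834) and SLC25A30, an uncoupling-protein-like carrier, 0.25 (SE 0.13, adjusted p = 0.834).

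The other carriers fixed for description were close to 0 or spread widely within a group. SLC25A5 had 4168, 4744 and 4806 reads in Ang cells, against 4244, 4207 and 4955 reads in Con cells (log2 0.05, SE 0.04, adjusted p = 0.854). The log2 value was 0.01 for SLC25A4 (SE 0.11), 0.06 for SLC25A1 (SE 0.06), 0.11 for SLC25A24 (SE 0.12) and 0.01 for SLC25A20 (SE 0.18). Of the aspartate/glutamate carriers, SLC25A12 had -0.11 (SE 0.09) and SLC25A13 had 0.10 (SE 0.11). SLC25A11 had 314, 71 and 88 reads in Ang cells, against 113, 115 and 193 reads in Con cells: Ang library 1 was far above the other two, and the log2 value of 0.26 (SE 0.66) turned to -0.85 without it. SLC25A6 had 907, 850 and 1826 reads in Ang cells, against 1227, 1650 and 1825 reads in Con cells (log2 -0.39, SE 0.29, adjusted p = 0.848). SLC25A37 had 709, 679 and 1059 reads in Ang cells, against 495, 844 and 800 reads in Con cells (log2 0.20, SE 0.23, adjusted p = 0.886). SLC25A22, a mitochondrial glutamate carrier, had 112, 88 and 20 reads in Ang cells, against 66, 78 and 83 reads in Con cells, so that Ang library 3 alone was low.

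**Figure D5:**
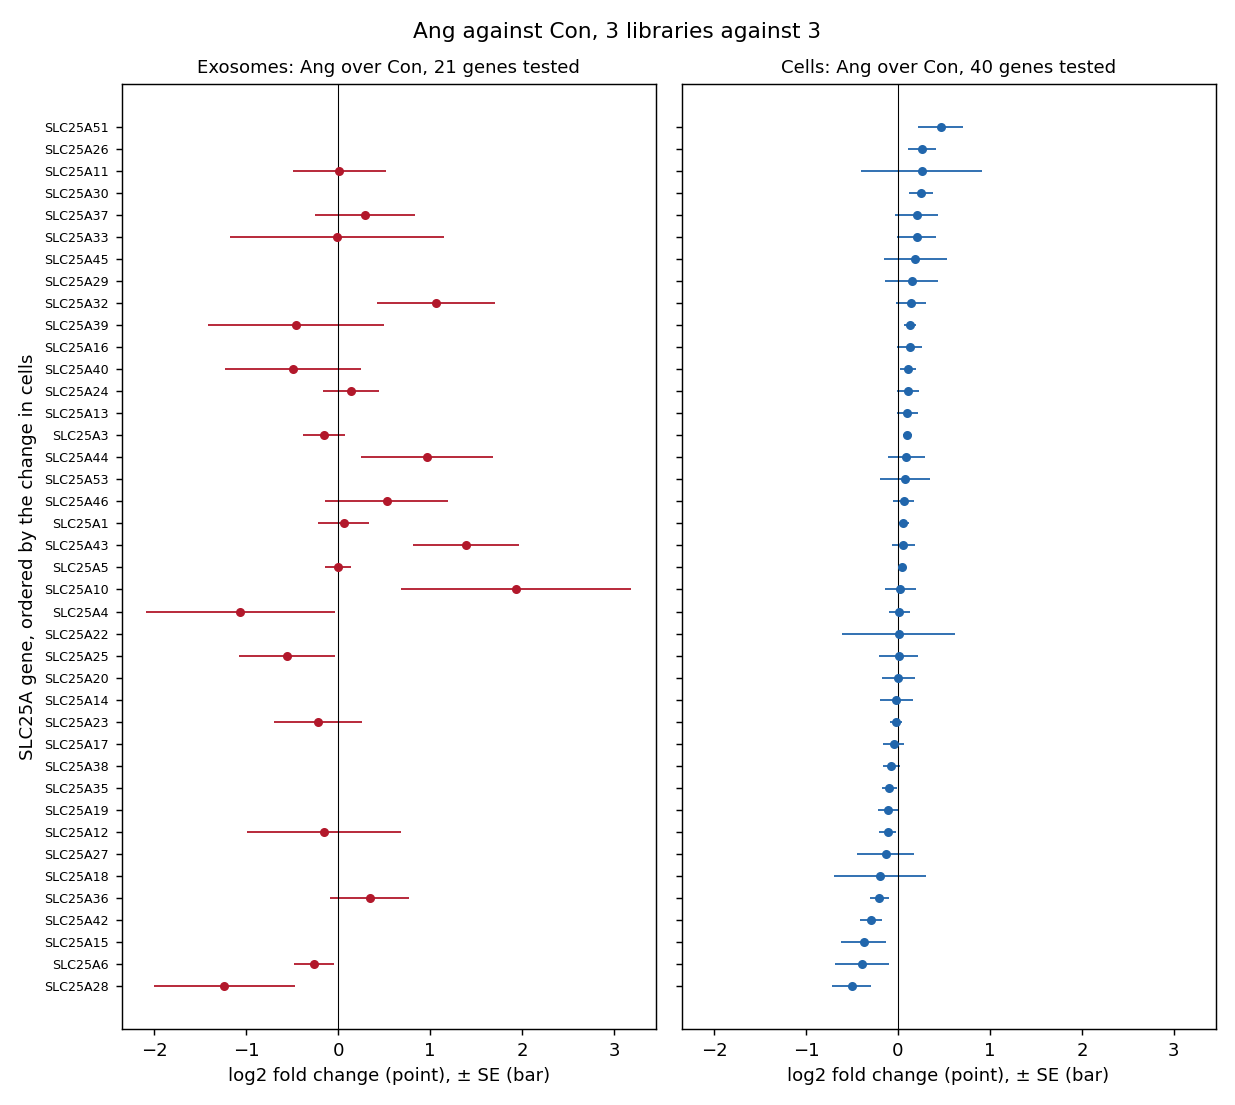
Log2 fold change of Ang over Con with its standard error for the 21 SLC25A genes tested in exosomes (left) and the 40 tested in cells (right), in the order of the cell values. The bars of the exosome panel are longer, and no gene in either panel passed the adjusted threshold.

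The difference between the Ang change in exosomes and the Ang change in cells was tested directly for 39 carriers. None passed in edgeR, 3 had an unadjusted p under 0.05 and DESeq2 called SLC25A15 and SLC25A43; over all 11811 genes edgeR called 0.0254%, 8.22% had an unadjusted p under 0.05 and DESeq2 called 3.12%. SLC25A15, the ornithine carrier of the urea cycle, had 4, 3 and 0 reads in Ang exosomes and none in the 3 Con exosome libraries, against 27, 33 and 51 reads in Ang cells and 49, 50 and 44 reads in Con cells, and no fold is given for so few reads. SLC25A29 had a log2 difference of 1.95 (SE 0.71, adjusted p = 0.514) and SLC25A43 of 1.33 (SE 0.54, adjusted p = 0.563, and 0.0191 in DESeq2). SLC25A42 had 1.33 (SE 0.69, adjusted p = 0.670) and SLC25A10 had 1.93 (SE 1.12, adjusted p = 0.699). The SLC25A42 value was 0.65 without Ang exosome library 1. The SLC25A10 value was 1.34 without Con exosome library 1, and without Con exosome library 3 no fold is given, since both Con exosome libraries then left had 0 reads. The 13 carriers fixed for description had log2 differences between -1.11, for SLC25A4, and 0.65, for SLC25A13, and the SLC25A4 value ran from -2.65 to -0.54 without 1 library.

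Circular RNAs, counted by the authors from reads over back-splice junctions, were few in these genes. Of 939 circular RNAs listed in exosomes, 1 lay inside a carrier gene, on the other strand; of 5179 in cells, 10 did, and 6 of those were on the gene's strand. Only 2 had both ends at annotated exon ends of the carrier, both in SLC25A24, with 2 and 3 reads in 1 cell library each. The one at chr1:108181941-108185954 had the 3 reads. The most frequent circle, inside SLC25A12 at chr2:171925537-171953001, had 10 reads in 1 exosome library and 26 reads over 5 cell libraries, and it lay on the strand opposite to SLC25A12.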

How the data were processed

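RNA of AC16 cells and exosomes was sequenced in 12 libraries. The authors deposited raw read counts per Ensembl gene with gene symbols and, separately, counts of back-splice junction reads per circular RNA, with 1 file of each kind per library. The submitters' processing notes name GRCh38, HISAT2 and StringTie; what counted the reads, whether strand was used, which annotation served and how circular RNAs were called: not given in the sources used here. Exosome libraries hold far fewer reads than cell libraries (535442 to 587783 in Ang and 717263 to 745311 in Con), so low carriers are imprecise there.

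Counts were fitted as deposited over all genes with edgeR 4.0.16 in R 4.3.3: TMM scaling, filterByExpr (minimum count 10, minimum total 15), robust quasi-likelihood fit, F test, Benjamini-Hochberg adjustment over all genes tested, threshold 0.05. The SE is the log2 fold change divided by the square root of F. Ang was compared with Con within exosomes and within cells (6 libraries each). Exosomes against cells, and the difference of both Ang changes, used all 12 libraries and genes listed in both compartments. Alternatives were DESeq2 1.42.0, other scalings, no filter, a replicate block and leaving out each library. CPM are TMM-scaled; TPM used GENCODE 29 exon lengths. Code was tested on simulated data. No 2 libraries of a group agreed within sampling noise (chi-square per degree of freedom at least 6.96).

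The carriers, gene lists, named genes and tests were chosen with earlier results of these data known. In each comparison the members past the threshold were named, up to 8 each way by fold, with 13 fixed carriers; below 5 calls, the 5 lowest p-values chose them. Other carriers singled out in the text (SLC25A2, SLC25A14, SLC25A21, SLC25A22, SLC25A25, SLC25A27, SLC25A34, SLC25A51 and SLC25A52) were named after their values were seen.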

Additional observations from a re-analysis of the deposited data

How the results depend on the processing

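No carrier passed between Ang and Con in exosomes or in cells under any alternative run. Over all genes the calls between Ang and Con in exosomes numbered 16 with DESeq2, 22 with 12 libraries in one fit, 3 without a count filter, 0 with a replicate block and 1 to 4 without 1 library, beside 1; in cells they numbered 60 with DESeq2 and 0 to 3 without 1 library, beside 0. Between exosomes and cells 10 carriers were called, and 20 with DESeq2 and 3 with the replicate block (3 higher and 0 lower, against 26.4% of all genes). The number was 4 within Ang and 4 within Con. Without 1 library 4 to 12 carriers were called, against 34.5% to 38.1% of all genes. Leaving out a cell library also lowered the carriers tested to 31. Over all genes that comparison gave 4380 calls, 2571 within Ang and 2412 within Con. For the difference of both Ang changes DESeq2 called 2 carriers and 368 genes, upper quartile scaling 5 genes, the replicate block 1 and leaving out 1 library 1 to 17, beside 3. Same-numbered libraries had correlations of their deviations from the group means between -0.0438 and 0.0166, so the numbers were not taken to pair libraries, and the block gave no called value another sign. SLC25A5 was 1158 TPM in exosomes and 1174 TPM in cells over longest transcripts, and 944 TPM in exosomes and 970 TPM in cells over principal transcripts, a length chosen after seeing the data; SLC25A3 was 305.1 TPM in exosomes and 436.4 TPM in cells over principal transcripts.

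Log2 values that changed sign belonged to carriers that did not pass in the same comparison, although some of them passed between exosomes and cells. Under other settings they were, in cells, SLC25A20 -0.0028 and SLC25A11 -0.11 with the block; in exosomes, SLC25A5 0.0053 with DESeq2 and 0.0054 with RLE factors and SLC25A11 -0.00464 with upper quartile scaling; between exosomes and cells, SLC25A3 0.037 and SLC25A39 0.20 within Con and SLC25A13 0.045 within Ang; and for the difference of both changes, SLC25A1 0.015 with DESeq2, 0.017 with RLE factors and 0.010 with upper quartile scaling and SLC25A11 0.18 with the block. Without 1 library the log2 values ran as follows. In cells, SLC25A4 ran from -0.039 to 0.046, SLC25A20 from -0.14 to 0.10 and SLC25A11 from -0.85 to 0.62. In exosomes, SLC25A5 ran from -0.093 to 0.063, SLC25A12 from -0.59 to 0.36, SLC25A1 from -0.13 to 0.20, SLC25A11 from -0.28 to 0.35, SLC25A37 from -0.074 to 0.78 and SLC25A39 from -1.08 to 0.069. Between exosomes and cells, SLC25A4 ran from -0.20 to 0.85, SLC25A39 from -0.42 to 0.16 and SLC25A20 from -3.77 to 0.20. For the difference, SLC25A6 ran from -0.077 to 0.50, SLC25A12 from -0.49 to 0.47, SLC25A13 from -0.12 to 1.13, SLC25A1 from -0.21 to 0.13, SLC25A11 from -0.62 to 0.85, SLC25A24 from -0.10 to 0.13, SLC25A37 from -0.28 to 0.57 and SLC25A20 from -7.20 to 7.30. SLC25A20 had 0, 0 and 5 reads in Ang exosomes and 0, 0 and 6 reads in Con exosomes. Without library 3 of either exosome group, the libraries left in that group had 0 reads. No fold can therefore be read from its values of -3.77, -7.20 and 7.30. The causes of the other changes, few exosome reads among them, were not tested.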
